A study of Mus musculus with 22 samples.

Results

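Neurexins and neuroligins are the adhesion proteins that hold the presynaptic and the postsynaptic membrane together, and hnRNP A1 footprints on their RNAs were examined here in spinal cord of naïve mice and of mice with experimental autoimmune encephalomyelitis (EAE), a model of multiple sclerosis. The members were Nrxn2, Nrxn3, Nlgn1, Nlgn2 and Nlgn3. A footprint was counted when it overlapped the annotated span of a gene (genome build GRCm38, GENCODE M21) by at least 1 nt, on either strand. No measured value entered that rule, but the members were chosen with earlier results of these data known. Of 136207 footprints in 10 mice, 336 lay in the 5 genes: 162 in Nlgn1, 125 in Nrxn3, 42 in Nrxn2, 6 in Nlgn2 and 1 in Nlgn3. All mice were adult female C57Bl/6 mice. The age at immunization is 12 weeks in the protocol and 8 weeks in the design text of the series, which was not resolved here. The naïve group (n = 3) was healthy, unimmunized and matched in age. The EAE mice had received myelin oligodendrocyte glycoprotein peptide (MOG(35-55)) under the skin in complete Freund's adjuvant, together with pertussis toxin, and their cords were taken 15 days after clinical onset. They were grouped by clinical score into mild EAE (scores 1.0 to 1.5, n = 3) and severe EAE (scores 2.5 to 3.0, n = 4).

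Neurexins sit in the axon terminal and bind neuroligins, leucine-rich repeat proteins and secreted linkers across the synaptic cleft. Each neurexin gene makes a long alpha form from an upstream promoter and a short beta form from a promoter inside the gene, and small cassette exons, chiefly the one called segment 4, set which partner is bound. Neuroligins are postsynaptic. Nlgn1 protein is found mainly at excitatory synapses and Nlgn2 protein at inhibitory ones, while Nlgn3 occurs at both. hnRNP A1 is a nuclear RNA-binding protein that acts on splice-site choice. Its best known binding motif is UAG. AGGU was searched for as well, and both are written here with T, as TAG and AGGT.

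Each mouse gave 1 list of footprints, the stretches of RNA that were crosslinked to and precipitated with hnRNP A1 and that remained after input and IgG sites had been subtracted. The lists carry no read count and no strand, so the depth behind a footprint is unknown and a mouse without a footprint is a mouse in which none was retained. List length differed widely. Naïve mice had 17119 to 17494 footprints, mild EAE mice 9751 to 24433, severe EAE mice 1 to 3 only 209 to 2670, and severe EAE mouse 4 had 31870. Introns held 32.2 to 42.8% of all covered nt in naïve mice and 15.6 to 30.001% in EAE mice. Values are therefore given both as covered nt (the summed length of a gene's footprints in a mouse) and as nt per 100000 nt covered in that mouse. A list from whole cord can shorten in several ways, among them fewer cells of a type, less bound RNA per cell, fewer reads or more sites subtracted. The paper describes sequencing depth and the quantity of RNA bound to hnRNP A1 as similar across its samples. The lists alone do not tell these ways apart, and their parts were not tested.

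The stretches of Nlgn1 printed first are those covered in at least 4 mice of any group, all in introns and all over 50% purine (A or G). They are on the minus strand of chromosome 3 and are written as RNA-strand DNA, 5′ to 3′, from the GRCm38 reference genome, with capitals at every TAG and AGGT.
Nlgn1 chr3:25788884-25789017 (minus strand): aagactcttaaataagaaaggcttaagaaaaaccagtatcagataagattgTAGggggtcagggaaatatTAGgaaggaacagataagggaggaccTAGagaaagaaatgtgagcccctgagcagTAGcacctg
Nlgn1 chr3:25781050-25781166 (minus strand): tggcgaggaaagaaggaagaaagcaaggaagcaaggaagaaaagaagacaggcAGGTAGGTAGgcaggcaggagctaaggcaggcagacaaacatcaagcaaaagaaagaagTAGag
Nlgn1 chr3:25792804-25792936 (minus strand): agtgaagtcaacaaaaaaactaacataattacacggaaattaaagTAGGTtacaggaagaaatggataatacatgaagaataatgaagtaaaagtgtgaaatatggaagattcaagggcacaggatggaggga
Nlgn1 chr3:26113829-26113920 (minus strand): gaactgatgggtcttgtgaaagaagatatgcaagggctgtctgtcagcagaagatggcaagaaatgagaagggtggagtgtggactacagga
Nlgn1 chr3:25770276-25770372 (minus strand): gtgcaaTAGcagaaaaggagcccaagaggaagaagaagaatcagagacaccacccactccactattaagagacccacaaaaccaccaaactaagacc
Nlgn1 chr3:25739546-25739634 (minus strand): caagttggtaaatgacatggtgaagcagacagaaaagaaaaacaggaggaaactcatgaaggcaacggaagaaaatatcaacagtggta
The first stretch was covered in 6 mice, the most for any stretch of the 5 genes. The second is the richest in purines, at 82.9%, and carries overlapping AGGT and TAG, but 62.4% of it is soft-masked as repeat. A stretch without capitals, such as the last, holds neither motif.

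For Nrxn3 (plus strand of chromosome 12) the stretches shown are the intronic one that was covered in all 3 naïve mice and in no EAE mouse, the intronic one with the most TAG, and the coding one that ended at a splice site in the naïve mice.
Nrxn3 chr12:89447112-89447232 (plus strand): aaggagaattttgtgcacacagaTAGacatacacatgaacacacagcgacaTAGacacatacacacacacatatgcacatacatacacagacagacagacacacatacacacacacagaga
Nrxn3 chr12:89609973-89610095 (plus strand): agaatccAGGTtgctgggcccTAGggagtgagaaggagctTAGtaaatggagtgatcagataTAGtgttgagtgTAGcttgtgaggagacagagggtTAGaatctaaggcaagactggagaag
Nrxn3 chr12:90204722-90204818 (plus strand): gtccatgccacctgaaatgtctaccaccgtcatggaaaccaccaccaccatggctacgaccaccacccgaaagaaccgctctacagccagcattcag
For Nrxn2 (plus strand of chromosome 19) they are the facing ends of 2 exons that were footprinted together in 4 mice.
Nrxn2 chr19:6490117-6490186 (plus strand): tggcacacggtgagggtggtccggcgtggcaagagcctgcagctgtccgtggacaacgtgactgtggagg
Nrxn2 chr19:6490534-6490581 (plus strand): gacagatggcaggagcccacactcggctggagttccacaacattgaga
Both are coding and hold neither motif. Each of the 11 sequences, 1121 nt in all, matched the genome at 1 place only when matches of at least 90% identity over at least 80% of the length were counted.

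Nlgn1 (chr3:25426215-26332460, minus strand) carried the most footprints, and every one of its 162 footprints lay in an intron. Introns are counted here between the merged exons of all annotated transcripts. Intron 6 of 8 (chr3:25440078-25912641, 472564 nt) held 137 of them, in 8 mice, and 84.5% of the covered nt of the gene. Intron 4 (chr3:25920238-26131669) held 24, and intron 1 held 1. Within intron 6 the footprints gathered toward the 5′ end: 129 of the 137 lay in its first 300 kb, and the densest 50 kb, from 100 to 150 kb, held 43 footprints and 126 covered nt per 1000 nt summed over mice. That window was covered in 7 mice. The median distance from a footprint to the nearest exon end was 124 kb, and no footprint lay within 500 nt of one. None had its midpoint within 1000 nt of any of the 3 annotated starts, and the 60-nt cassette exon (chr3:25920178-25920237) was not covered in any mouse.

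**Figure D1:**
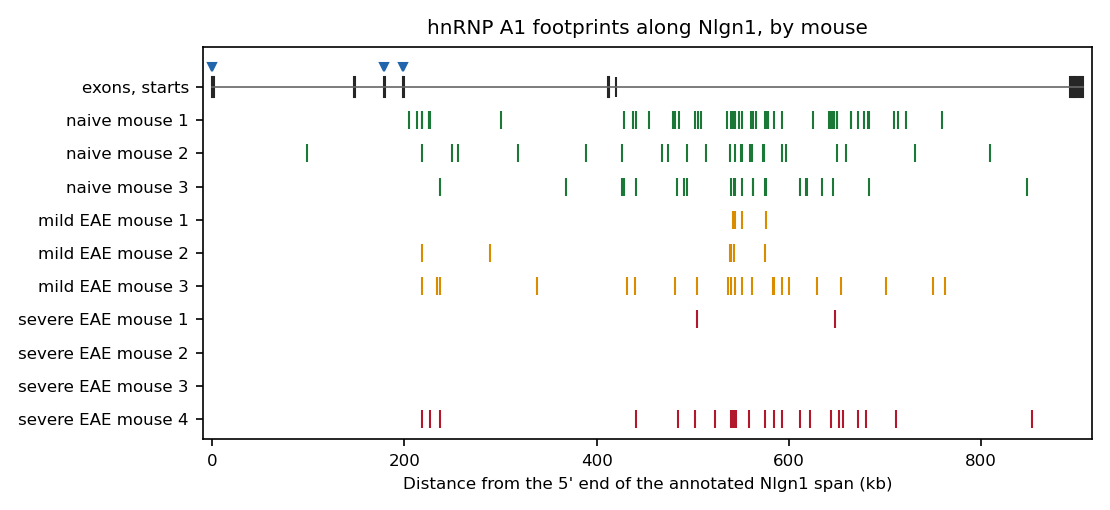
Footprints of the 10 mice along Nlgn1, 1 row for each mouse and 1 tick for each footprint, against distance in kb from the 5′ end of the gene. Black boxes are exons of protein-coding transcripts and triangles are annotated starts. All ticks lie between exons, most of them in the long intron 6, and severe EAE mice 2 and 3 have none.

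Nlgn1 had 55, 25 and 23 footprints in naïve mice 1 to 3, 4, 6 and 22 in mild EAE mice 1 to 3, and 2, 0, 0 and 25 in severe EAE mice 1 to 4. Covered nt were 8930, 3143 and 3219 in the naïve mice, 469, 839 and 3375 in the mild EAE mice, and 318, 0, 0 and 4417 in the severe EAE mice. Naïve mouse 1 stood far above the other naïve mice, and mild EAE mouse 3 and severe EAE mouse 4 lay within the naïve range. The mean was 5097 ± 3319 nt (SD, n = 3) in naïve mice and 1345 ± 1791 nt (n = 7) in EAE mice, a difference of -3752 nt that did not pass (exact permutation test, two-sided, p = 0.05, adjusted p = 0.956 after Benjamini-Hochberg over 13948 genes). Without naïve mouse 1 the difference was -1836 nt (exact permutation test, p = 0.306). Without mild EAE mouse 3 it was -4090 nt and without severe EAE mouse 4 -4264 nt (exact permutation test, p = 0.0357 for each). Of all genes with a footprint, 2.98% were lower in EAE by covered nt at an exact p under 0.05, and of the 922 protein-coding genes over 200 kb, 16.5%.

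As a share of each list, Nlgn1 took 402, 153 and 147 nt per 100000 covered nt in naïve mice 1 to 3. It took 30.3, 72.5 and 113 in mild EAE mice 1 to 3 and 96.3, 0, 0 and 107 in severe EAE mice 1 to 4, so that the lowest naïve mouse lay above the highest EAE mouse. The means were 234 ± 146 (SD, n = 3) and 59.8 ± 49.2 (n = 7). This difference of -174 had the smallest p that 120 splits can give (exact permutation test, two-sided, p = 0.00833) and did not pass after adjustment over all genes (adjusted p = 0.570). Severe EAE mice alone gave an exact permutation p of 0.0286 against naïve mice (adjusted p = 0.822) and mild EAE mice 0.1, in each case the smallest possible. No gene passed that adjustment, on this scale or on covered nt. Among all genes, 3.68% were lower in EAE at an exact p under 0.05 on the share scale and 1.61% were lower without overlap of the groups. For genes over 200 kb these figures were 21.1% and 9.00%, so a lower share was common among long genes. By mean share Nlgn1 was the 27th of 13948 genes in naïve mice and the 276th in EAE mice.

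The intronic part of the lists moved with this difference. When Nlgn1 was counted as intronic nt per 100000 intronic nt of the same mouse, it took 942, 357 and 457 in the naïve mice, 194, 260 and 474 in the mild EAE mice, and 517, 0, 0 and 416 in the severe EAE mice. Groups overlapped on this scale, with means of 585 ± 313 (SD, n = 3) and 266 ± 214 (n = 7; exact permutation test, two-sided, p = 0.1). Without naïve mouse 1 the difference in share was -90.2 nt per 100000 (exact permutation test, p = 0.0556).

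Nlgn1 was also the member with the most positions covered repeatedly. Of its 162 footprints, 75 (46.3%) overlapped a footprint of another mouse, and 17 stretches were shared by at least 2 naïve mice, 4 by at least 2 mild EAE mice and none by at least 2 severe EAE mice, of which mice 2 and 3 had no footprint in the gene. Of all genes with a footprint, 20.2% had a stretch shared by at least 2 naïve mice, 24.2% by mild EAE mice and 6.44% by severe EAE mice, and of genes over 200 kb 45.7%, 36.2% and 9.11%. Counted over all 10 mice, 27 stretches were covered in at least 2 mice, of which 19 held both naïve and EAE mice, 8 held naïve mice only and none held EAE mice only. The stretch chr3:25788884-25789017, printed first above, was covered in all 3 naïve mice, in mild EAE mice 1 and 3 and in severe EAE mouse 4.

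Nrxn3 (chr12:88722876-90334935, plus strand, 1612060 nt) was mostly footprinted in introns too, with 100 intronic, 21 coding and 4 untranslated-region footprints. The largest share, 50 footprints in 6 mice and 40.6% of the covered nt, lay in intron 21 of 28 (chr12:89533011-89812482, 279472 nt), which ends where the first exon of the beta transcript begins. Of these, 28 lay in the first 100 kb of the intron. The beta first exon itself (chr12:89812483-89813640) was not covered in any mouse. Introns 23, 9, 7 and 15 held 12, 10, 9 and 8 footprints. Near the 4 annotated starts, 3 of the 125 footprints had their midpoint within 1000 nt, each in a different mouse and at a different start. One of these, in mild EAE mouse 3 (chr12:89193075-89193207), also lies in a coding exon of longer transcripts. The 3 annotated cassette exons, among them the 90-nt segment 4 exon (chr12:90199147-90199236), were not covered in any mouse.

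**Figure D2:**
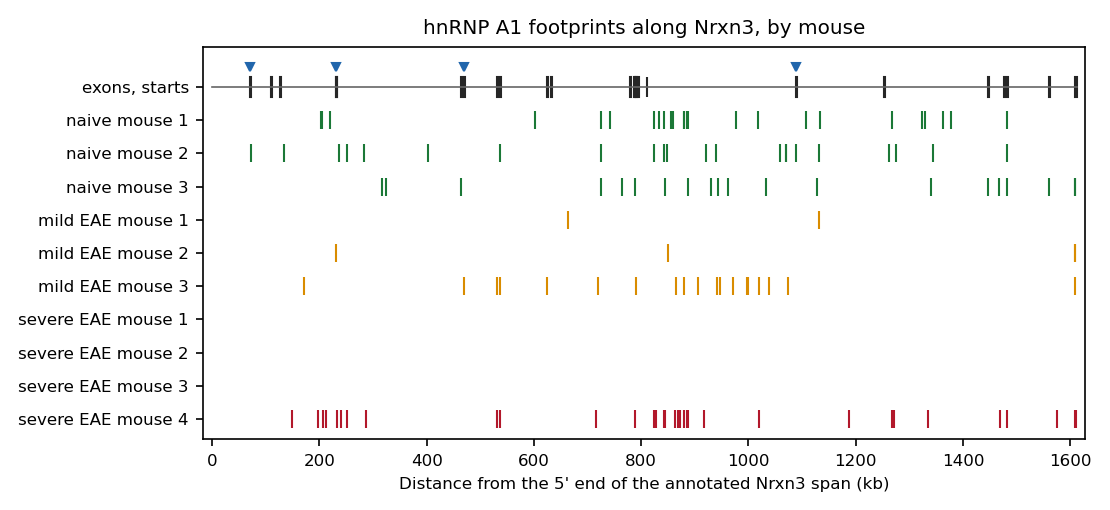
Footprints of the 10 mice along Nrxn3, 1 row for each mouse and 1 tick for each footprint, against distance in kb from the 5′ end of the gene. Black boxes are exons of protein-coding transcripts and triangles are annotated starts. Severe EAE mice 1 to 3 have no tick, and the 50 footprints of intron 21 are spread over the intron that ends at the last triangle, the beta start, 28 of them in its first 100 kb.

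Counts in Nrxn3 were 25, 22 and 20 footprints in naïve mice 1 to 3, 2, 4 and 19 in mild EAE mice 1 to 3, and 0, 0, 0 and 33 in severe EAE mice 1 to 4. Covered nt were 3486, 2686 and 2719 in the naïve mice, 336, 570 and 2471 in the mild EAE mice, and 0, 0, 0 and 5105 in the severe EAE mice. The naïve mice were close to each other, and severe EAE mouse 4, whose list was the longest, lay above them all. Means were 2964 ± 453 nt (SD, n = 3) and 1212 ± 1929 nt (n = 7; exact permutation test, two-sided, p = 0.158, adjusted p = 0.956 over all genes). Without severe EAE mouse 4 the p was 0.0119 (exact permutation test).

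As a share, Nrxn3 took 157, 131 and 124.3 nt per 100000 in the naïve mice, 21.7, 49.3 and 82.7 in the mild EAE mice, and 0, 0, 0 and 123.3 in the severe EAE mice. The groups did not overlap, but naïve mouse 3 and severe EAE mouse 4 were almost equal. Means were 137 ± 17.3 (SD, n = 3) and 39.6 ± 48.3 (n = 7), a difference of -97.8 that did not pass after adjustment (exact permutation test, two-sided, p = 0.0167, adjusted p = 0.762 over all genes). The exact permutation p was 0.0571 for severe EAE and 0.1 for mild EAE mice against naïve mice. Without severe EAE mice 1 to 3 the difference was -68.1 (exact permutation test, p = 0.0571). Per 100000 intronic nt the groups overlapped, at 357, 264 and 261 in naïve mice, 139, 89.7 and 264 in mild EAE mice and 0, 0, 0 and 378 in severe EAE mice (exact permutation test, two-sided, p = 0.125).

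**Figure D3:**
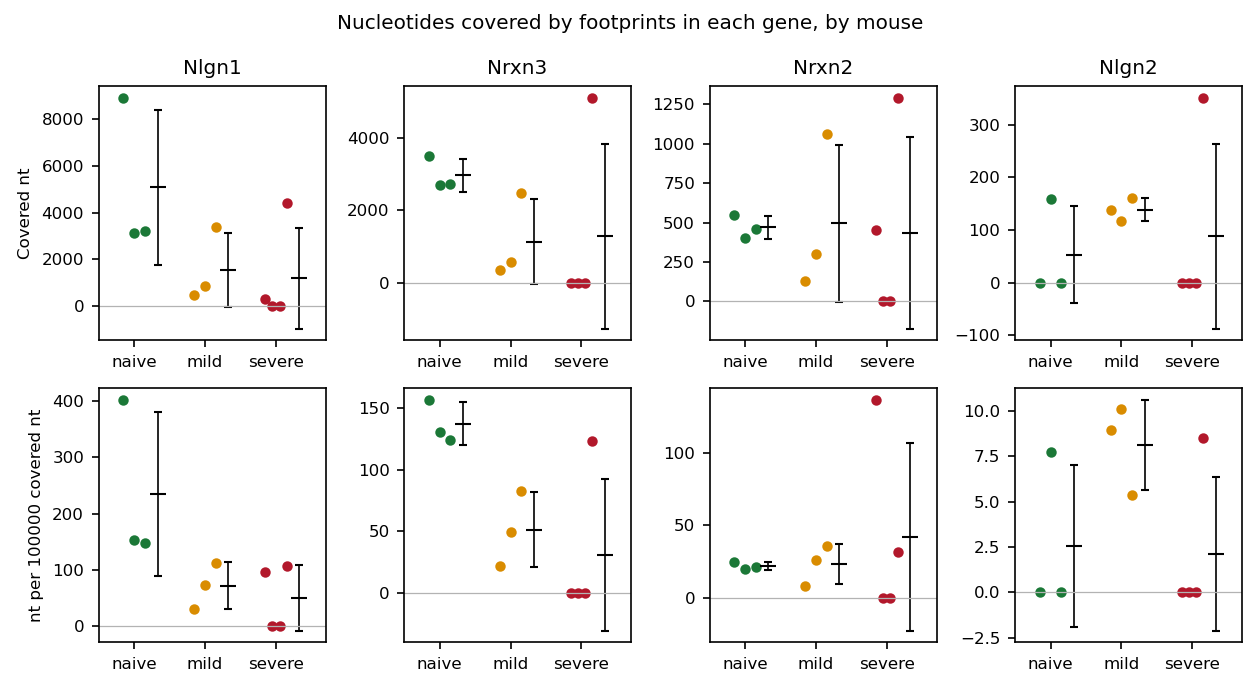
Covered nt (upper row) and nt per 100000 covered nt of the mouse (lower row) for Nlgn1, Nrxn3, Nrxn2 and Nlgn2, by group, 1 dot for each mouse, with bars at the mean and error bars of ± 1 SD (3 naïve, 3 mild EAE and 4 severe EAE mice). On the share scale the naïve dots of Nlgn1 and Nrxn3 lie above all EAE dots, at the least by 124.3 against 123.3 in Nrxn3, while those of Nrxn2 lie among them.

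Recurrence was lower in Nrxn3 than in Nlgn1, as a description without a test: 36 of 125 footprints (28.8%) overlapped another mouse's. Exonic footprints recurred more, 15 of 25 against 21 of 100 in introns. Naïve mice shared 4 stretches, mild EAE mice 1 (chr12:90332245-90332394, in the coding part of the last exons) and severe EAE mice none. The intronic stretch chr12:89447112-89447232, a run of CA-rich sequence that is 83.5% soft-masked as repeat, was covered in naïve mice 1, 2 and 3 and in no EAE mouse. The coding stretch chr12:90204722-90204818 was covered in naïve mice 1, 2 and 3 and in severe EAE mouse 4. All 3 naïve footprints there stopped at the exon end, position 90204818, whereas that of severe EAE mouse 4 ran 17 nt on into the intron.

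Introns held less of the covered nt of the 5 genes in EAE mice than in naïve mice. Intronic sequence made up 95.0, 89.8 and 83.5% in naïve mice 1 to 3, 75.1, 61.8 and 77.7% in mild EAE mice 1 to 3, and 54.8 and 74.5% in severe EAE mice 1 and 4. Severe EAE mice 2 and 3 had no footprint in the 5 genes and enter no mean. The groups did not overlap, with means of 89.4 ± 5.76% (SD, n = 3) and 68.8 ± 9.94% (n = 5), and the difference of -20.7 percentage points had the smallest p that 3 against 5 allows (exact permutation test, two-sided, p = 0.0179). Over all genes the intronic share also differed, at 42.7, 42.8 and 32.2% in the naïve mice, 15.6, 27.9 and 23.9% in the mild EAE mice, and 18.6, 30.001, 23.9 and 25.7% in the severe EAE mice. The lists as a whole thus moved in the same direction.

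**Figure D4:**
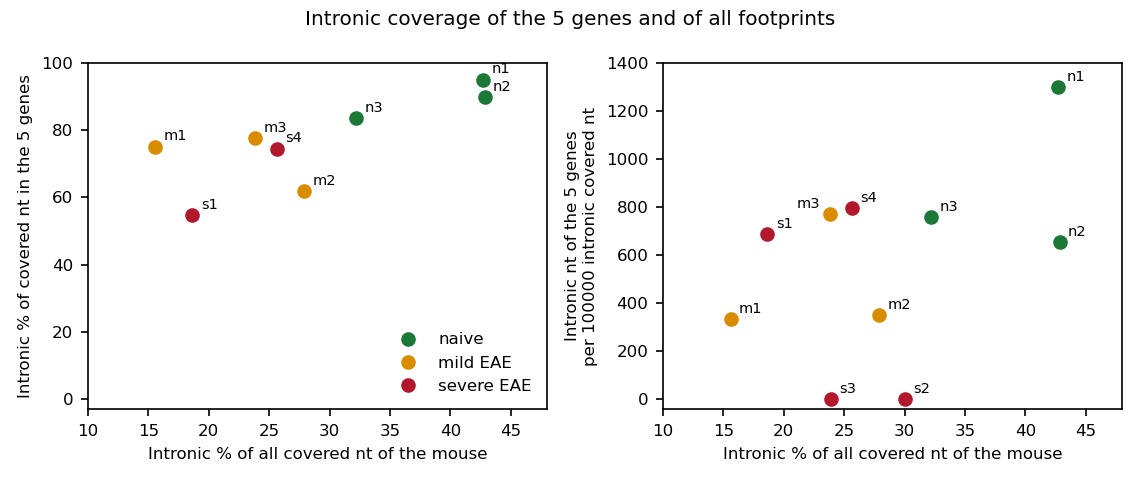
Left, percent of the covered nt of the 5 genes that is intronic against percent of all covered nt that is intronic, 1 point for each mouse with a footprint in the genes (n, m and s with a number stand for naïve, mild EAE and severe EAE mice). The 3 naïve mice lie highest on both axes, at 83.5 to 95.0% and 32.2 to 42.8%. Right, intronic nt of the 5 genes per 100000 intronic nt covered in the mouse, where the naïve mice (652 to 1299) and the EAE mice (0 to 794) overlap.

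Nrxn2 (chr19:6418731-6544169, plus strand, 125439 nt) differed from the pair above in where it was bound. Of its 42 footprints, 36 lay in coding exons and 6 in introns. Footprints of 28 (66.7%) began or ended within 3 nt of an annotated exon end, against 14 of 125 (11.2%) in Nrxn3, none of 162 in Nlgn1, and 57.7% of the 117994 footprints in all protein-coding genes. Among footprints that overlapped an exon the figures were 28 of 37 in Nrxn2 (75.7%), 14 of 25 in Nrxn3 (56.0%) and 77.8% in all protein-coding genes.

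In Nrxn2, 16 pairs of footprints of the same mouse ended and resumed at both sides of an annotated intron, in 6 mice and at 11 introns. The 347-nt intron between positions 6490186 and 6490534 had such a pair in naïve mouse 1, mild EAE mice 2 and 3 and severe EAE mouse 4, whose facing ends are printed above. Nrxn3 had 4 such pairs, in 3 mice. Contigs were aligned as spliced transcripts by the authors, so such pairs can come from the same contig, which the lists do not record.

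**Figure D5:**
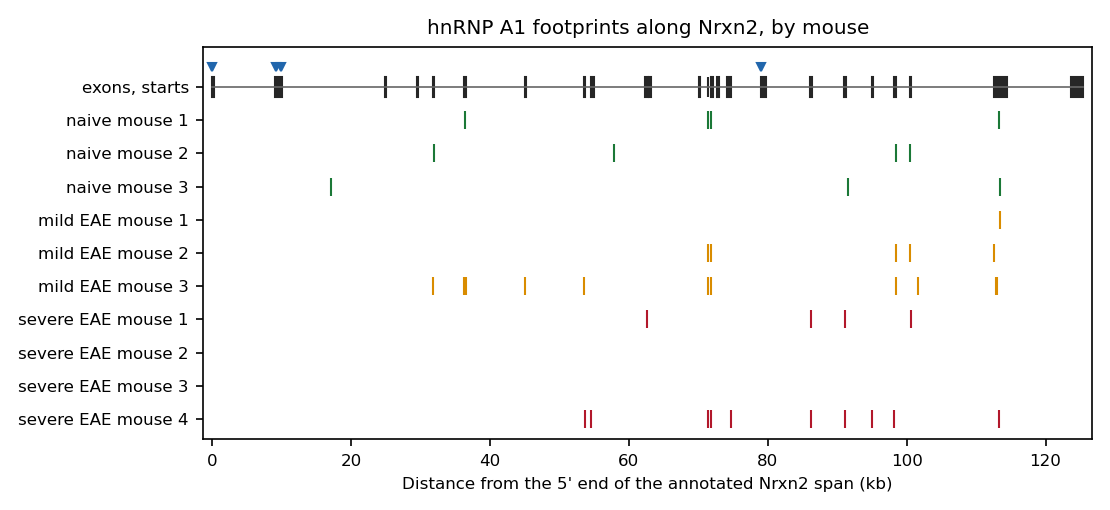
Footprints of the 10 mice along Nrxn2, 1 row for each mouse and 1 tick for each footprint, against distance in kb from the 5′ end of the gene. Black boxes are exons of protein-coding transcripts and triangles are annotated starts. Most ticks lie on boxes, and mild EAE mouse 3 (11 footprints) and severe EAE mouse 4 (10) have the most.

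Among the small cassette exons of Nrxn2, mild EAE mouse 3, whose list was the longest of its group, covered the 72-nt exon (chr19:6450528-6450599) and the 24-nt exon (chr19:6463824-6463847), the latter paired with the exons on both sides. The 30-nt (chr19:6448255-6448284) and 27-nt (chr19:6488784-6488810) exons were not covered in any mouse. No naïve mouse covered these 4 exons, but none was covered in more than 1 mouse, so groups were not compared. The beta first exon (chr19:6497828-6498531) was not covered in any mouse, and none of the 42 footprints had its midpoint within 1000 nt of the 4 annotated starts. The last coding part (chr19:6531268-6532278) was covered in 6 mice.

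Nrxn2 had 4, 4 and 3 footprints in naïve mice 1 to 3, 1, 5 and 11 in mild EAE mice 1 to 3, and 4, 0, 0 and 10 in severe EAE mice 1 to 4. Covered nt were 549, 406 and 460 in the naïve mice, 128, 299 and 1061 in the mild EAE mice, and 452, 0, 0 and 1294 in the severe EAE mice. Means were 472 ± 72.2 (SD, n = 3) and 462 ± 519 nt (n = 7; exact permutation test, two-sided, p = 0.992). Shares were 24.7, 19.8 and 21.0 nt per 100000 in the naïve mice, 8.27, 25.9 and 35.5 in the mild EAE mice, and 137, 0, 0 and 31.2 in the severe EAE mice (exact permutation test, two-sided, p = 0.8). The EAE mice lay on both sides of the narrow naïve range on both scales. The value of 137 in severe EAE mouse 1 rests on 4 footprints of a short list. Intronic nt made up 39.6% of the covered nt summed over naïve mice, 15.7% over mild EAE and 6.07% over severe EAE mice. By mouse it was 0, 66.7 and 62.8% in naïve mice 1 to 3 and 0, 0 and 22.1% in mild EAE mice 1 to 3. Severe EAE mice 1 and 4 had 23.0 and 0.155%, so the groups overlapped. In this gene 25 of 42 footprints (59.5%) overlapped another mouse's, and 1 stretch was shared by naïve, 3 by mild EAE mice and 2 by severe EAE mice. The severe EAE stretches, in the exons at 6504952 and 6509778, were shared by mice 1 and 4 and by no naïve or mild EAE mouse. They face each other across 1 annotated intron, as do the mild EAE stretches at 6490087 and 6490534. Each such pair can come from the same contig, so its stretches are not independent. Over all 10 mice, 10 stretches of Nrxn2 were covered in at least 2 mice. Of these, 5 held both naïve and EAE mice, 5 held EAE mice only and 0 held naïve mice only. With 7 EAE and 3 naïve mice, more pairs of EAE mice could share a stretch.

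Nlgn2 (chr11:69823122-69837784, minus strand) had 6 footprints, 1 in naïve mouse 2, 1 in each mild EAE mouse and 2 in severe EAE mouse 4. Covered nt were 0, 159 and 0 in the naïve mice, 139, 117 and 160 in the mild EAE mice, and 0, 0, 0 and 352 in severe EAE mice (53.0 ± 91.8, SD, n = 3, against 110 ± 128, n = 7, exact permutation test, two-sided, p = 0.583). The 6 footprints fell at only 3 places, each covered in a pair of mice of different groups. Those of mild EAE mouse 3 and severe EAE mouse 4 overlapped in the 5′ untranslated region (chr11:69837262-69837339) and had their midpoints 524 and 420 nt from the most upstream start. The other places (chr11:69825757-69825861 and chr11:69826919-69827011) are coding. Nlgn3 (chrX:101299168-101325963, plus strand) had 1 footprint, of 160 nt in a coding exon (chrX:101302159-101302318), in severe EAE mouse 4, where the span of Gm21986 overlaps the gene. The 51-nt exon of Nlgn2 and both 60-nt exons of Nlgn3, cassette exons in the annotation, were not covered in any mouse.

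Over the 5 genes together, covered nt were 12965, 6394 and 6398 in naïve mice 1 to 3, 1072, 1825 and 7067 in mild EAE mice 1 to 3, and 770, 0, 0 and 11328 in severe EAE mice 1 to 4. Nlgn1 made up 51.7% of all these nt and Nrxn3 36.3%, so the sum mainly follows them. The EAE mean differed from the naïve mean by -5434 nt, which fell short of the threshold, and the groups overlapped (8586 ± 3793, SD, n = 3, against 3152 ± 4355, n = 7, exact permutation test, two-sided, p = 0.133, adjusted p = 0.343 over 4 comparisons). Severe minus naïve was -5561 nt (p = 0.171, adjusted p = 0.343), mild minus naïve -5264 nt (p = 0.3, adjusted p = 0.4) and severe minus mild -297 nt (p = 0.971), by the same exact permutation test. The least p possible is 0.0286 for 3 against 4 mice and 0.1 for 3 against 3, so the comparison of mild EAE with naïve mice could not reach 0.05.

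Shares of the 5 genes were 584, 311 and 293 nt per 100000 in the naïve mice, 69.2, 158 and 237 in the mild EAE mice, and 233, 0, 0 and 274 in the severe EAE mice. No EAE mouse reached the lowest naïve mouse, with means of 396 ± 163 (SD, n = 3) and 139 ± 116 (n = 7; exact permutation test, two-sided, p = 0.0167, adjusted p = 0.0667 over 4 comparisons). Severe EAE minus naïve was -269 (adjusted p = 0.114), mild minus naïve -241 (adjusted p = 0.133) and severe minus mild -27.9 (unadjusted p = 0.8), all by the exact permutation test. Without naïve mouse 1 the difference of EAE from naïve was -163 (exact permutation test, p = 0.111). Per 100000 intronic nt the 5 genes took 1299, 652 and 759 in the naïve mice, 333, 350 and 770 in the mild EAE mice and 685, 0, 0 and 794 in the severe EAE mice, and the groups overlapped (exact permutation test, two-sided, p = 0.1).

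The intronic footprints were rich in purines. In Nlgn1 purines made up 59.7% of the bases of intronic footprints and 48.9% of 6327 windows of 141 nt tiled over the same introns, and 79.0% of footprints but 44.3% of windows were over 50% purine. Nrxn3 gave 56.2% against 49.4% (11579 windows of 138 nt), with 75.0% and 45.1% over 50% purine. AGGT on the RNA strand was found in 54.9% of Nlgn1 footprints and 36.8% of windows, and in 45.0% and 39.6% in Nrxn3. At least 1 TAG was found in 85.4% of windows and 87.7% of footprints in Nlgn1, and in 86.6 and 88.0% in Nrxn3. So short a motif occurs in most stretches of this length. Per 1000 nt, TAG occurred 15.9 times in footprints and 14.3 times in windows of Nlgn1, and 17.5 and 15.0 times in Nrxn3. By group, purine content of Nlgn1 footprints was 58.7% (naïve), 63.0% (mild EAE) and 59.5% (severe EAE). These are descriptions of overlapping footprints from shared positions, without a test, and a motif match is not a binding site.

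Many genes that work with neurexins and neuroligins, chosen by their role, had lower mean shares in EAE mice as well. Of 25 extracellular partners and adhesion molecules, 16 had a footprint. At an exact permutation p under 0.05 the share was lower in EAE for 4 of them and higher for none, and 2 did not overlap between groups. Over all genes, 3.68% were lower at that p and 1.61% were lower without overlap. The median difference of the list was -5.11 nt per 100000, against -0.38 over all genes. Clstn2, a calsyntenin that binds neurexins, took 38.3 ± 16.4 in naïve (SD, n = 3) and 5.43 ± 7.28 in EAE mice (n = 7; exact permutation p = 0.00833). Lrrtm1, a postsynaptic neurexin ligand, took 6.41 ± 0.63 and 0.559 ± 1.48 (exact permutation p = 0.00833) and was covered in 3 of 3 naïve and 1 of 7 EAE mice. Lrrtm4, of the same ligand family, took 172 ± 74.6 against 45.8 ± 54.3 (exact permutation p = 0.0167) and Mdga2, which binds neuroligins and keeps neurexins from them, 149 ± 62.5 against 46.6 ± 48.3 (exact permutation p = 0.025). Ptprd, a presynaptic receptor phosphatase, took 148 ± 42.2 against 65.1 ± 58.1 (exact permutation p = 0.0667). Clstn2 and Lrrtm1 were named because their groups did not overlap, so their p-values follow largely from that choice. Their adjusted p was 0.570 each over all genes.

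Among the intracellular scaffolds, 24 of 25 had a footprint, the share was lower in EAE for 9 at an exact permutation p under 0.05 and higher for none, 5 did not overlap, and the median difference was -12.1 nt per 100000. The 5 without overlap were the scaffold Magi2 (392 ± 173 in naïve, n = 3, against 96.7 ± 81.3 in EAE, n = 7), Dlg2 (234 ± 86.9 against 59.4 ± 50.8), which encodes PSD-93, Dlgap1 (198 ± 19.4 against 80.7 ± 50.3), Magi1 (67.1 ± 13.7 against 16.1 ± 15.8) and the neurexin-side adaptor Apba1 (49.7 ± 26.7 against 5.01 ± 6.77). Each had an exact permutation p of 0.00833 and an adjusted p of 0.570 over all genes. Lack of overlap was a rule for naming genes, so this p follows largely from the choice and adds no support. All 14 splicing factors listed for exons of neuronal adhesion genes had a footprint. The share was lower in EAE for 4 and higher for none, 2 were without overlap, and the median difference was -5.79. Rbfox1, a neuronal splicing factor, took 335 ± 80.8 and 167 ± 96.3 (exact permutation p = 0.025), and Khdrbs2, which acts on segment 4, 20.3 ± 10.3 and 2.96 ± 5.11 (exact permutation p = 0.00833). Celf4, of the CELF splicing factors, took 53.5 ± 36.0 and 13.0 ± 13.1 (exact permutation p = 0.0417). Mbnl2, a muscleblind factor, took 20.2 ± 18.2 and 12.0 ± 18.1 (exact permutation p = 0.542). In the order given, the mean share was lower in EAE for 13 of 16, 16 of 24 and 13 of 14 footprinted genes of these lists. Of these genes 6, 10 and 5 exceed 200 kb. Among genes over 200 kb, 21.1% were lower in EAE and 9.00% lower without overlap, against 3.68% and 1.61% of all genes. Nothing is therefore read as particular to the lists.

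The 5 genes whose shares ran most like the sum of the 5 members over the 10 mice, out of 3164 protein-coding genes with a footprint in at least 5 mice, were Ppp2r2b (Spearman's rho 0.988, Pearson's r 0.964), Xkr4 (0.976, 0.970), Dlg2 (0.976, 0.954), Nrg1 (0.951, 0.947) and Lrp1b (0.942, 0.922). These correlations share the libraries and their short severe EAE lists and are given as a description.

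Markers of the cell types of spinal cord were checked in the same lists. All 7 neuronal markers had a footprint, with a summed share of 156 to 200 nt per 100000 in naïve mice and 0 to 177 in EAE mice. The 6 oligodendrocyte markers summed to 95.9 to 312 and 88.2 to 632, the 5 astrocyte markers to 63.0 to 163 and 0 to 422. Of 8 leukocyte and microglial markers, 7 had a footprint, 2 of them in naïve mice, with sums of 7.75 to 20.4 in naïve and 0 to 172 in EAE mice, and Aif1 had none. Hox genes of the posterior cord, 4 of 5 with a footprint (Hoxc10 had none), summed to 13.7 to 19.2 and 0 to 17.3. These are footprints, not RNA levels. The part of cell makeup in the lower shares of Nlgn1 and Nrxn3 was not tested.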

How the data were processed

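hnRNP A1 immunoprecipitates (10) of crosslinked spinal cord were used, from 3 naïve, 3 mild EAE and 4 severe EAE mice. Input and pooled IgG samples (12) were not analysed here. Mice carry the study's designations, by which the numbers within a group do not pair mice across groups. Per the methods, the authors made reads with bcl2fastq 2.19.0.316 and trimmed them with fastp. Contigs came from rnaSPAdes and were placed on GRCm38 by the spliced alignment of minimap2 2.17. Sites of the input and the pooled IgG were taken out with bedtools, and sites that overlapped were joined. The deposited lists give chromosome, start and end (3 columns), and no read count, score or strand. Contig assembly keeps no depth, so a footprint is weighted by its length alone, and a short list may miss footprints. Overlapping genes were not separated: 5 footprints of Nrxn2 also overlap Gm14964, 2 of Nrxn3 Gm37980, 1 of Nlgn1 Gm37573 and 1 of Nlgn3 Gm21986.

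Footprints were assigned to GENCODE M21 spans with an overlap of at least 1 nt. The coding and UTR classes came from protein-coding transcripts, and intron meant outside the exons of all annotated transcripts. Covered nt and nt per 100000 covered nt were compared by the two-sided exact permutation test of the mean difference (3 against 7 mice, 120 splits, smallest p 0.00833), with Benjamini-Hochberg adjustment over the 13948 genes with a footprint, or over 4 comparisons for the sum. The test was tried on simulated data. Gene lists were used whole, and the 3 genes of each list with the highest mean covered nt over the 10 mice, plus those whose naïve and EAE shares did not overlap, were named, with the 5 genes of most like share over the mice by Spearman's rho. Members, lists and tests were chosen with earlier results of these data known. P-values measure the spread between mice of the stated groups. Python 3.11.15, NumPy 2.4.6, SciPy 1.17.1, matplotlib 3.10.9 and BLAST+ 2.17.0 were used. Alternatives were footprint counts, exons only, other length limits, scaling by covered nt or by mapped reads, 1 mouse left out, and the mouse number as a block. Added after seeing the values were the intronic scale, leaving out severe EAE mice 1 to 3 (except for the share of the 5 genes) and every alternative for the shares of Nlgn1 and Nrxn3. An exon of Nrxn2 is not reported here.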

Additional observations from a re-analysis of the deposited data

Results flagged for a closer look

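In the severe EAE group, mouse 4 lay far from the other 3 mice, its gap to the nearest of them over the range of the group being above Dixon's critical value for 4 samples. The paper had already described this mouse as an outlier of its group, in remission shortly before the experiment ended. Its covered nt were 11328 for the 5 genes together, 4417 for Nlgn1, 5105 for Nrxn3, 352 for Nlgn2 and 160 for Nlgn3. On the scale of nt per 100000 covered nt it stood apart with 123 in Nrxn3, 8.50 in Nlgn2 and 3.86 in Nlgn3. In Nrxn3, Nlgn2 and Nlgn3 the other severe EAE mice had no footprint, so any footprint in mouse 4 would set the flag there. The list of mouse 4 held 31870 footprints, against 209 to 2670 in the other 3. Chance alone marks about 1 in 20 groups of continuous values, a rate that does not hold for those 3 genes. These values come from the same mouse and are not independent. The part of list length was not tested.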

How the results depend on the processing

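Passing is judged in this section by an exact permutation p under 0.05 before adjustment. After adjustment the shares of the 5 genes, of Nlgn1 and of Nrxn3 had not passed in the main results. Of 240 alternative values, 17 turned direction, 11 no longer passed, 12 newly passed and 9 counts of stretches moved by over 1.5 times. Nlgn1 had no exonic footprint, so exons only left it no difference. For the 5 genes together, exons only turned the difference in covered nt from naïve mice to 40.9 (EAE), 24.6 (severe) and 62.7 (mild). EAE minus naïve passed per 100000 covered nt (-257, exact permutation p = 0.0167), per 1000000 mapped reads (-1735, p = 0.00833) and without severe EAE mouse 4 (-6797, p = 0.0357), and severe minus naïve per 1000000 mapped reads (-1804, p = 0.0286). With 1 mouse left out these ranged from -6797 to -3244 for EAE, -8329 to -3372 for severe EAE and -7137 to -3075 for mild EAE against naïve, and severe minus mild from -3065 to 1576. The numbers do not pair mice by design. With the mouse number as a block, mild minus naïve was -5264 (exact permutation p = 0.5) and severe minus naïve, which then lacks severe EAE mouse 4, was -8329 (p = 0.25). With 3 pairs the least p is 0.25, so no call could be made. Nrxn2 covered nt, near equal in both groups, rose above 0 as number of footprints (0.762), in exons only (128), per 100000 covered nt (12.1), without severe EAE mice 1 to 3 (224) and in part with 1 mouse left out (-148 to 67.3), and Nlgn2 fell to -8.78 per 1000000 mapped reads. The share of the 5 genes and of Nlgn1 no longer passed on the intronic scale (-484 and -320, exact permutation p = 0.1 for both) or without naïve mouse 1 (ranges with 1 mouse left out -309 to -163 and -218 to -90.2), and that of Nrxn3 on the intronic scale (-170, p = 0.125) or without severe EAE mice 1 to 3 (-68.1, p = 0.0571), with a range of -112 to -87.9. The intronic percent of the 5 genes differed by -23.6 to -17.2 with 1 mouse left out, and 5 of those 8 values no longer passed (exact permutation p up to 0.0952), where fewer splits are possible. Asking for 3 mice of a group left 5 shared stretches in naïve, 0 in mild and 0 in severe EAE mice, and with 1 mouse left out 7 to 15, 0 to 6 and 0 to 2 were shared by at least 2 mice. The cause of the other changes was not tested. Read depth behind footprints is unknown, and the short lists of severe EAE mice 1 to 3 limit what could be seen in them.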
